A study of Mus musculus with 36 samples.

Results

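The 10 genes studied here are ones that astrocytes switch on when they become reactive. They were followed through the 30 bulk brain libraries and the 6 libraries of sorted microglia of the series. They are Gfap, Vim, Serpina3n, Lcn2, Osmr, Timp1, Cd44, Cd109, S1pr3 and Steap4. They were chosen by name, and all 10 were found among the 24940 genes of the deposited count table. Poly(A) RNA of male mice of 2 genotypes came from 3 brain regions, the cortex, the corpus callosum (a white matter tract) and the striatum. MSA mice are of the MBP29-haSyn line, which carries human alpha-synuclein under a myelin basic protein promoter, active in oligodendrocytes, and models multiple system atrophy. The others are its controls. Each genotype ate standard AIN-76A chow, called placebo here, or chow containing 1200 mg/kg of PLX5622. This drug inhibits CSF1R, a receptor kinase without which microglia die. Bulk tissue came from mice fed for 12 weeks from the age of 4 weeks. Each of the 4 cortex groups had 3 libraries. In corpus callosum the placebo controls had 3 libraries, in striatum the placebo MSA mice had 3, and all other groups of these regions had 2. Microglia (CD11b+, CD45 low, 16 weeks of age, no diet arm) had 3 libraries per genotype. Their controls carry the tag MBP29_het and the MSA samples MBP29_homo, while the protocol speaks of wild-type mice, so whether these controls carry the transgene is not settled by the labels. Nothing in the labels ties a library to an animal, and the p-values therefore cover only the variation among the libraries at hand.

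Reactive astrocytes enlarge their intermediate filament skeleton and secrete protease inhibitors and an iron-carrier binding protein. They also display receptors for cytokines, matrix and lipids. A main route to this state is the gp130 receptor family, which binds oncostatin M and related cytokines and acts through JAK kinases and the transcription factor STAT3. White matter astrocytes carry more GFAP than those of grey matter in the healthy brain, and microglia can signal to astrocytes through cytokines and complement.

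The promoters of 9 of the 10 genes were in the RefSeq promoter table (build GRCm38.p6, 250 bases before to 50 after the start site), all but that of Cd109. Each was searched on both strands for the STAT motif TTCNNNGAA, the form bound by STAT3, and for the AP-1 motif TGANTCA, and the 2 motifs did not overlap. The STAT motif stood in 2 of the 9 promoters, against 8.3% of all 32851 promoters of that length, and the AP-1 motif stood in 1 of 9, against 7.81%. The 3 windows of 30 bases are shown because these are the only matches among the genes studied here. They are printed 5′ to 3′ on the strand of the gene, with the motif in capitals. The first motif base lies at -116 from the start site in Steap4 (chr5:7960346-7960375, plus strand), at -2 in Gfap (chr11:102897183-102897212, minus strand) and at +4 in Osmr (chr15:6874292-6874321, minus strand).
Steap4, STAT: ggttgaactcTTCCCGGAAactttgcttca
Gfap, STAT: atgggggtgcTTCCAGGAAgtcaggggcag
Osmr, AP-1: tgccccgtagtTGATTCAtagctggggcgc
A match is a string of letters and not evidence of binding, and a promoter without one is described only for this window.

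Cortex libraries held 4.36 to 9.79 M counts assigned to genes. The range was 4.6 to 28.6 M for corpus callosum, 5.18 to 11.3 M for striatum and 5.95 to 12.1 M for microglia. Under 70% of the reads in the file header were assigned in 6 bulk libraries, 2 of cortex, 3 of corpus callosum and 1 of striatum. Levels are given as counts scaled to 1e6 assigned counts per library (CPM), and differences as log2 fold changes ± standard error from edgeR's quasi-likelihood test, with Benjamini-Hochberg adjustment over all genes of the comparison. A gene is said to be called, or to rise or fall, where the adjusted p is under 0.05. In striatum the 2 PLX5622 control libraries bear that diet in the title but a tag of no treatment, and they were grouped by title. Microglia genes summed to 35.7 to 55.9 CPM in them, against 570 to 585 CPM in placebo control striatum. In bulk tissue a change in the number of cells and a change of RNA per cell cannot be told apart.

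Gfap was by far the most abundant of the 10 genes. Per length, on the TPM scale of the authors' deposited table (counts divided by transcript length and scaled per library), placebo control corpus callosum held 265 of Gfap, 34.1 of Vim and 12.2 of Serpina3n. The other 7 genes lay between 0.08 TPM (Steap4) and 1.68 TPM (S1pr3) there. The counts of Lcn2 and Steap4 were so low that 10 and 11 of the 30 bulk libraries had none.

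**Figure D1:**
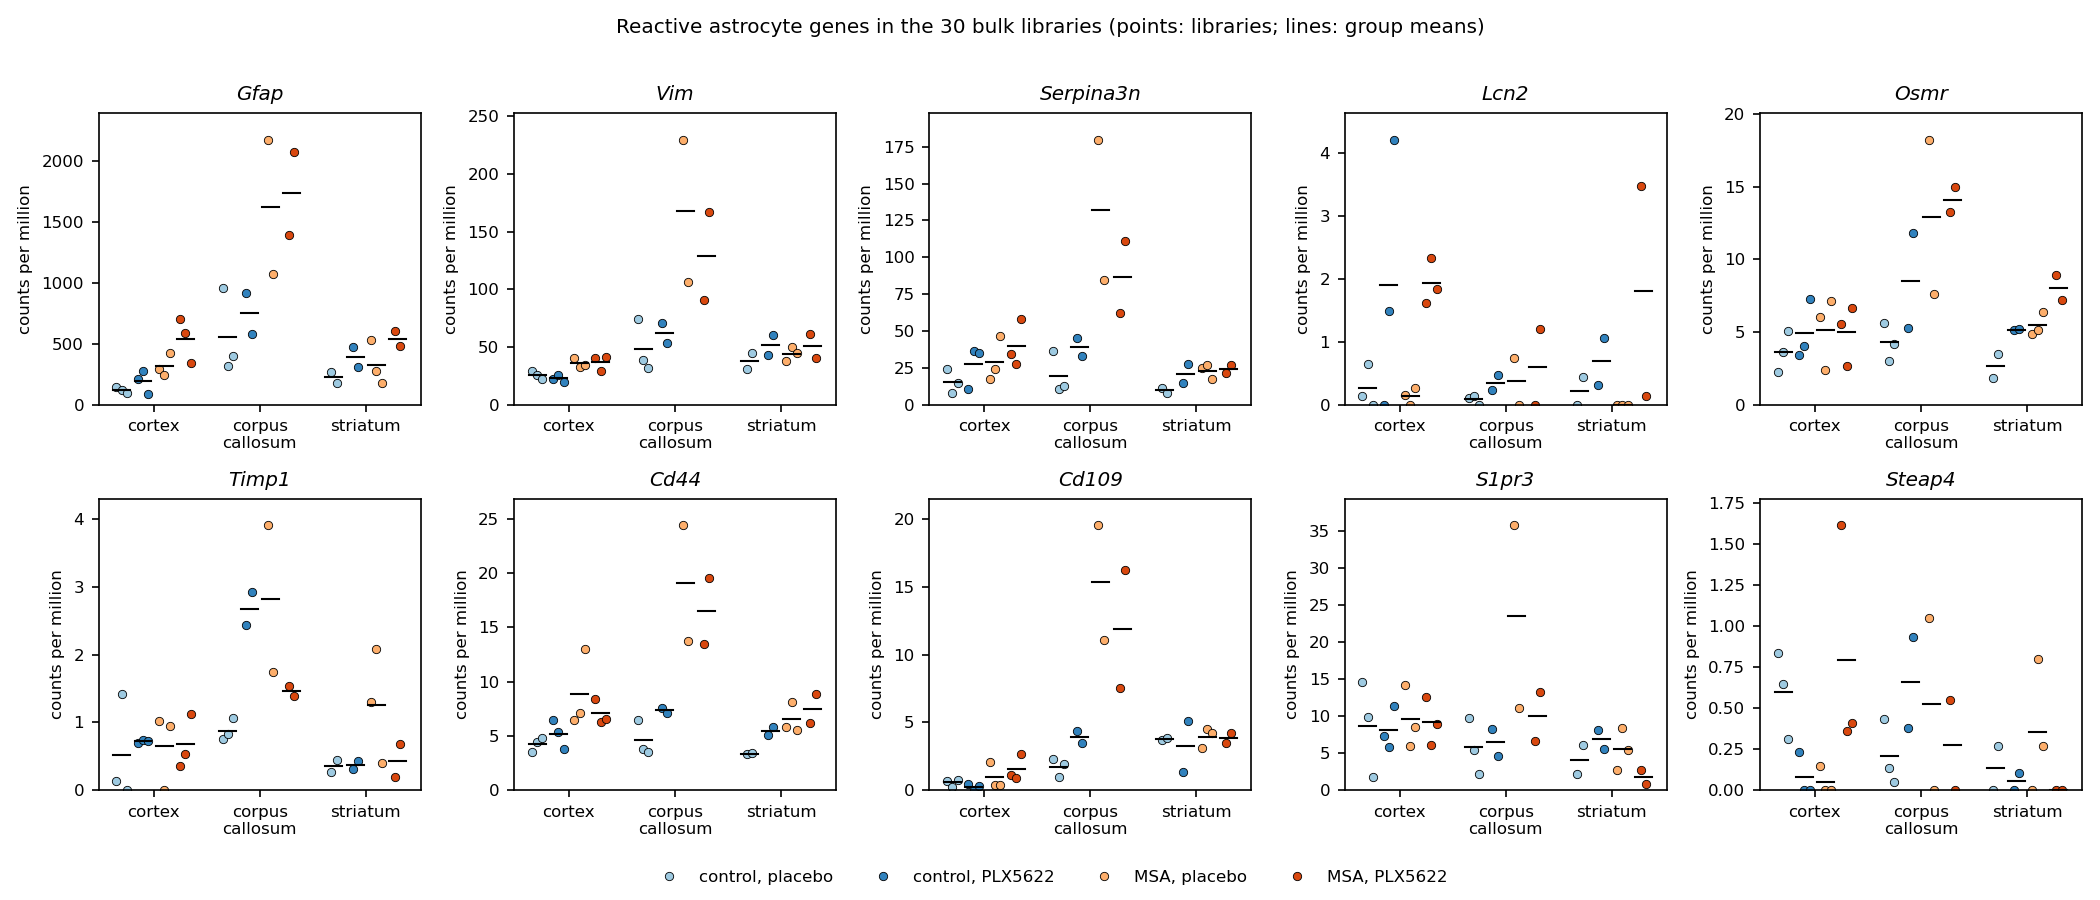
Level of each of the 10 genes in CPM (linear axis from 0, own scale per gene) in every bulk library, by region, genotype and diet; points are libraries and lines are group means. The MSA corpus callosum points stand above the placebo control corpus callosum points for 8 genes on placebo, all but Lcn2 and Steap4, and placebo library 1 is the highest of all 30 libraries for 8 of the 10 genes.

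The transgene was compared first. In corpus callosum of placebo mice all 8 tested members had higher estimates in MSA mice, and their median log2 change was 1.95 against 0.00525 over all 15881 genes tested. Only Cd109 passed the threshold, and 0.321% of all genes did. All 8 tested members had an unadjusted p under 0.05, as did 1354 of the 15881 genes. DESeq2 called 4 members, Vim, Serpina3n, Cd44 and Cd109, among 204 genes or 1.22% of those it gave an adjusted p. The MSA values lay above all control values for 8 of the 10 members, which was the case for 17.2% of all genes. Lcn2 and Steap4 had too few counts to be tested. Under PLX5622 no member was called by edgeR or DESeq2 (background 0.195%), with 2 members and 708 of all genes at an unadjusted p under 0.05. The median was 1.02, and 6 of 10 members had no overlap upward, against 17.4% of genes. Timp1 had no overlap downward, against 7.88%. Over both diets 1 member was called again, Cd109 (background 0.365%), with 7 of 8 members and 1230 of all genes at an unadjusted p under 0.05. DESeq2 called 5 there, adding Gfap to the 4 above, among 251 genes or 1.44%.

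In cortex 7 members were tested. None was called on placebo by edgeR or DESeq2, and neither was any of all genes (0%). At an unadjusted p under 0.05 were 2 members and 514 of all 14600 genes. None was called under PLX5622 by either tool (background 0.151%), with 2 members and 412 of all genes at an unadjusted p under 0.05. Over both diets edgeR called none (background 0.137%), with 3 members and 497 of all genes at an unadjusted p under 0.05. DESeq2 called Gfap there, among 39 genes or 0.219%. The median of the members was 0.515 on placebo and 0.385 under PLX5622, against 0.0162 and -0.035 over all genes. The MSA values lay above all control values for Gfap, Vim and Cd44 on placebo (4.76% of genes) and for Gfap, Vim, Cd109 and Steap4 under PLX5622 (4.58% of genes). They lay below all control values for Steap4 on placebo (3.91% of genes).

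In striatum 7 members were tested and edgeR and DESeq2 called none on placebo (background 0.0336%), under PLX5622 (0.222%) or over both diets (0.377%). At an unadjusted p under 0.05 there were 3, 1 and 3 members, and 558, 1631 and 1242 of all 14872 genes. The members' median was 0.571 on placebo against 0.0138 over all genes, and 0.249 under PLX5622 against 0.00829. The values of MSA mice lay above all control values for Serpina3n, Osmr and Cd44 on placebo (8.12% of genes) and for Gfap, Osmr and Cd44 under PLX5622 (22.7% of genes). They lay below all control values for S1pr3 under PLX5622 (20.8% of genes).

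**Figure D2:**
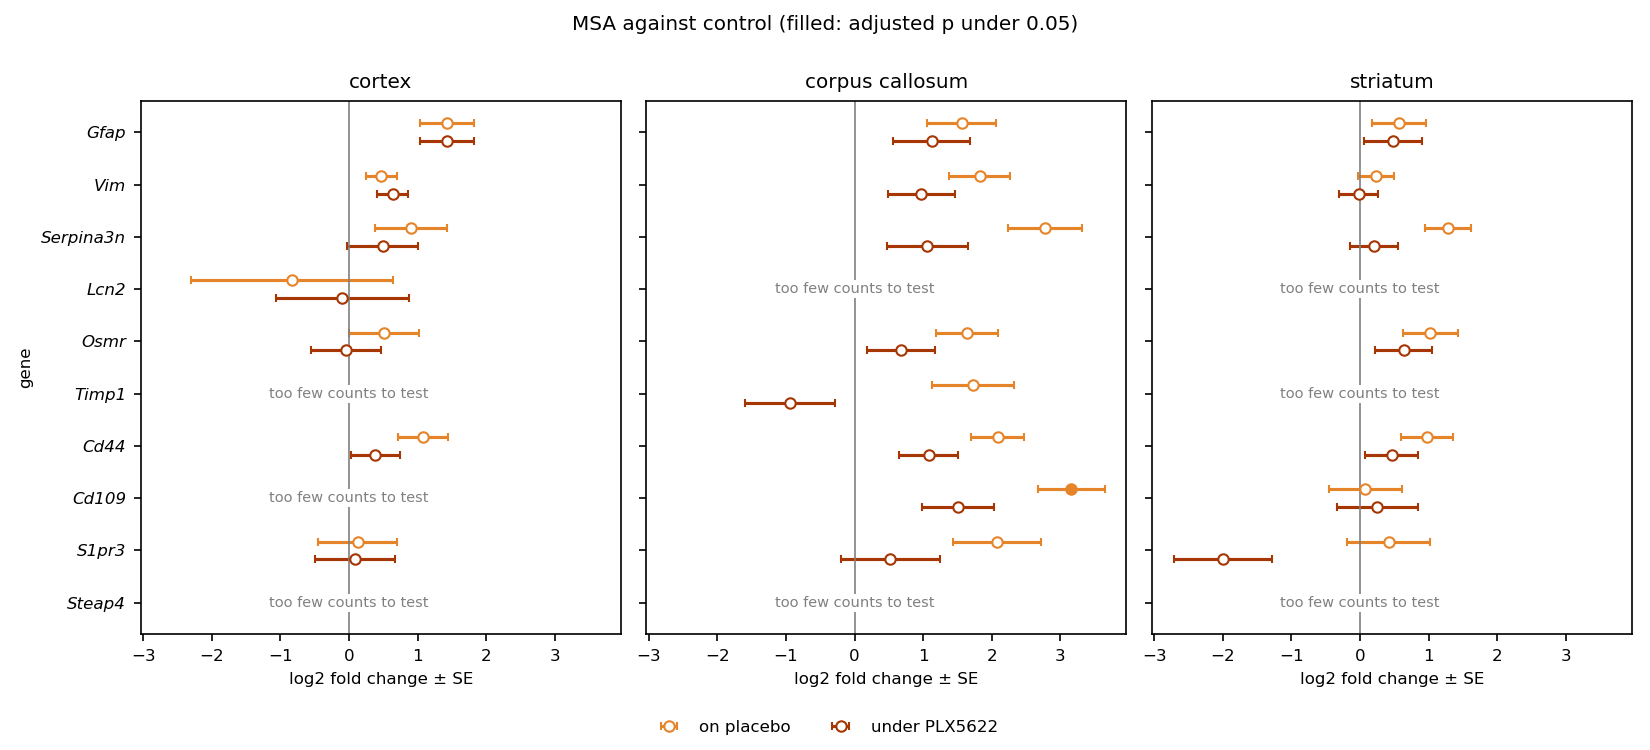
Log2 fold change of MSA against control mice (horizontal axis, ± SE of the edgeR fit) for each gene in cortex, corpus callosum and striatum, on placebo and under PLX5622; a filled point has an adjusted p under 0.05. Only Cd109 in corpus callosum on placebo is filled, at 3.16, and the 8 tested genes of corpus callosum on placebo all lie to the right of 0.

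Gfap (NM_010277, mm10 chr11:102887336-102897200, minus strand) encodes the intermediate filament protein that defines astrocytes in histology. In cortex it measured 140, 120 and 93.8 CPM in placebo controls and 294, 242 and 421 CPM in placebo MSA mice. Under PLX5622 the controls had 213, 277 and 85.0 CPM and the MSA mice 702, 585 and 339 CPM. All 6 MSA libraries therefore stood above the controls of the same diet, by 1.43 ± 0.39 on placebo and 1.43 ± 0.39 under PLX5622 on the log2 scale. Such separation was seen for 4.76% of all genes on placebo and 4.58% under PLX5622. Over both diets the difference was 1.43 ± 0.28, with an adjusted p of 0.0957, which edgeR did not call. DESeq2 gave 1.43 with an adjusted p of 0.000372, and edgeR without the filter on low counts gave 1.43 with 0.023. These fits called 0.219% and 0.144% of genes.

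In corpus callosum Gfap measured 954, 315 and 397 CPM in placebo controls, 2178 and 1069 in placebo MSA mice, 919 and 578 in PLX5622 controls and 1392 and 2077 in PLX5622 MSA mice. Again no MSA library overlapped a control on the same diet, and the differences were 1.56 ± 0.50 (adjusted p = 0.384) and 1.13 ± 0.56 (adjusted p = 1.00). Of all genes 17.2% on placebo and 17.4% under PLX5622 were separated upward in this way. Control library 1 stood far above the other placebo controls. In striatum placebo controls had 266 and 179 CPM and placebo MSA mice 527, 276 and 180. These groups overlapped, and the difference was 0.57 ± 0.39 (adjusted p = 0.999). Under PLX5622 the striatum held 472 and 308 CPM in controls and 604 and 478 in MSA mice, with the nearest libraries almost equal.

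Vim (NM_011701, chr2:13574311-13582826, plus strand) encodes vimentin, which joins GFAP in the filaments of reactive astrocytes and is also made by endothelium, fibroblasts and ependyma. In cortex it spanned 22.2 to 29.3 CPM in placebo controls and 32.2 to 40.7 in placebo MSA mice, and 19.9 to 25.6 against 29.0 to 41.4 under PLX5622. The shift was small and without overlap on either diet, 0.56 ± 0.16 over both (adjusted p = 0.765). Upward separation was found for 4.76% of all genes on placebo and 4.58% under PLX5622. In corpus callosum it measured 74.1, 38.4 and 31.8 CPM in placebo controls against 230 and 107 in placebo MSA mice, and 70.7 and 53.3 against 90.4 and 167 under PLX5622. The difference there was 1.83 ± 0.44 on placebo (adjusted p = 0.200) and 0.97 ± 0.49 under PLX5622. In striatum the groups overlapped, with 30.9 and 44.6 CPM in placebo controls and 37.6, 50.2 and 44.8 in placebo MSA mice.

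Among the secreted proteins, Serpina3n (NM_009252, chr12:104406708-104414329, plus strand) encodes a serine protease inhibitor. It belongs to a cluster of similar Serpina3 genes, and reads shared between copies could be split among them by the authors' counting, so its level is uncertain to that extent. In corpus callosum it measured 36.4, 10.3 and 12.3 CPM in placebo controls and 180 and 84.7 in placebo MSA mice. Both MSA libraries were higher than the highest control, as was the case for 17.2% of all genes. The difference was 2.77 ± 0.54 with an adjusted p of 0.0907. Leaving out control library 1 brought it to 3.58 with an adjusted p of 0.0279. That library had the highest control value, so leaving it out by itself widens the difference. In the same fit Cd109 lost its call (adjusted p = 0.0797). Under PLX5622 controls had 45.4 and 32.9 CPM and MSA mice 61.8 and 111, a difference of 1.06 ± 0.59. In striatum on placebo 11.2 and 7.99 CPM in controls faced 24.9, 26.6 and 17.4 in MSA mice (1.28 ± 0.33, adjusted p = 0.743). Under PLX5622 the striatal groups overlapped, at 14.4 and 27.3 against 21.3 and 26.9 CPM. In cortex they overlapped on both diets, with 7.90 to 24.4 CPM in placebo controls and 17.3 to 46.2 in placebo MSA mice.

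Timp1 (NM_001044384, chrX:20870166-20874737, plus strand) encodes an inhibitor of matrix metalloproteinases. It lies inside Syn1, the neuronal synapsin I gene, on the opposite strand. Whether exons of the 2 genes overlap was not checked. The strand setting of the counting is not known here, so reads from any shared exon stretch cannot be told apart. For genotype and diet it reached the counts needed for a test only in corpus callosum. There the placebo controls had 0.756, 0.820 and 1.06 CPM and the placebo MSA mice 3.91 and 1.74, a difference of 1.73 ± 0.60 (adjusted p = 0.439). Under PLX5622 the order turned, with 2.43 and 2.92 CPM in controls above 1.53 and 1.40 in MSA mice, a log2 change of -0.95 ± 0.65. In cortex its levels ran from 0 to 1.42 CPM and in striatum from 0.193 to 2.08 CPM, with overlapping genotypes on both diets.

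Lcn2 (NM_008491, chr2:32384637-32387739, minus strand) encodes lipocalin 2, which binds bacterial iron carriers and is a strong marker of astrocytes after inflammatory stimulation. It was near the limit of detection in bulk tissue on placebo. Its values were 0.140, 0.648 and 0 CPM in placebo control cortex, 0.146, 0 and 0.268 in placebo MSA cortex, and at most 0.734 CPM in any placebo library of corpus callosum or striatum. The 3 placebo MSA striatum libraries had no count. The placebo MSA mice therefore showed no Lcn2 level above that of the controls in cortex (-0.83 ± 1.47, adjusted p = 0.880), and the other regions had too few counts to test.

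Of the receptors and surface proteins, Osmr (NM_011019, chr15:6813577-6874313, minus strand) encodes the oncostatin M receptor subunit that pairs with gp130. In corpus callosum it measured 5.62, 3.01 and 4.18 CPM in placebo controls and 18.2 and 7.62 in placebo MSA mice (1.64 ± 0.45, adjusted p = 0.276). Under PLX5622 it was 5.24 and 11.8 against 13.2 and 14.9 CPM (0.67 ± 0.50). In striatum 1.84 and 3.46 CPM in placebo controls stood below 4.88, 5.12 and 6.35 in placebo MSA mice, and 5.11 and 5.21 below 8.88 and 7.19 under PLX5622. The genotypes were thus separate on both diets in corpus callosum and striatum, with no call. Of all genes 17.2% on placebo and 17.4% under PLX5622 were separated upward in corpus callosum. In striatum these shares were 8.12% and 22.7%. In cortex they overlapped, from 2.23 to 5.08 CPM in placebo controls and 2.38 to 7.10 in placebo MSA mice.

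Cd44 (NM_009851, chr2:102811142-102901665, minus strand) encodes the receptor for hyaluronan, which also binds osteopontin. Its corpus callosum levels were 6.48, 3.83 and 3.54 CPM in placebo controls and 24.5 and 13.7 in placebo MSA mice. Under PLX5622 they were 7.60 and 7.12 in controls and 13.5 and 19.5 in MSA mice. On each diet the MSA libraries were above the controls, as they were for 17.2% of all genes on placebo and 17.4% under PLX5622. The difference was 2.09 ± 0.39 on placebo (adjusted p = 0.0678) and 1.58 ± 0.29 over both diets (adjusted p = 0.0561). DESeq2 called both, in fits that called 1.22% and 1.44% of genes, as did edgeR without the filter on low counts (0.441% and 0.639%). edgeR on the placebo groups alone called the first with an adjusted p of 0.00941, in a fit that called 1.79% of genes. Neither was called with RLE factors or with any single placebo control library left out. Without PLX5622 control library 1, which leaves 1 library in that group, the difference over both diets was 1.65. In cortex on placebo 3.49, 4.40 and 4.78 CPM in controls lay below 6.43, 7.15 and 13.0 in MSA mice (1.08 ± 0.36, adjusted p = 0.828). In striatum on placebo 3.29 and 3.37 lay below 5.85, 8.16 and 5.54 CPM (0.97 ± 0.37, adjusted p = 0.999).

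Cd109 (NM_153098, chr9:78615546-78716260, plus strand) encodes a membrane-anchored protein of the alpha-2-macroglobulin family that binds TGF-beta receptors. It was the member called by edgeR for genotype in bulk tissue. In corpus callosum it measured 2.27, 0.957 and 1.93 CPM in placebo controls and 19.6 and 11.1 in placebo MSA mice, and the difference was 3.16 ± 0.49 with an adjusted p of 0.0251. Under PLX5622 the controls had 4.33 and 3.50 CPM and the MSA mice 7.55 and 16.2 (1.52 ± 0.53, adjusted p = 0.819). Over both diets it rose by 2.34 ± 0.36 (adjusted p = 0.0236). The MSA libraries were above the controls on each diet, against 17.2% of all genes on placebo and 17.4% under PLX5622. The call on placebo was lost without any 1 of the 3 control libraries (adjusted p = 0.0797, 0.149 and 0.165) and without MSA library 1 (0.347), with log2 changes of 2.69 to 3.37. Over both diets it was lost without any placebo control library, without either placebo MSA library and without PLX5622 MSA library 3, with adjusted p from 0.0512 to 0.187. In striatum no such difference was measured, with 3.69 and 3.82 CPM in placebo controls and 3.09, 4.48 and 4.19 in placebo MSA mice (0.08 ± 0.53). In cortex Cd109 reached at most 2.66 CPM and was not tested.

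S1pr3 (NM_010101, chr13:51408618-51422797, plus strand) encodes a receptor for sphingosine 1-phosphate. In corpus callosum it measured 9.72, 5.47 and 2.21 CPM in placebo controls and 35.8 and 11.1 in placebo MSA mice, the latter pair far apart. The difference was 2.08 ± 0.65 (adjusted p = 0.365). Under PLX5622 the groups overlapped, at 8.28 and 4.55 against 6.62 and 13.3 CPM. In striatum the order under PLX5622 was the reverse, with 8.14 and 5.53 CPM in controls and 2.70 and 0.814 in MSA mice (adjusted p = 0.440). Steap4 (NM_054098, chr5:7960472-7982213, plus strand) encodes a metalloreductase of the cell membrane. It never exceeded 1.62 CPM and was tested in no comparison. In placebo cortex it measured 0.838, 0.647 and 0.308 CPM in controls and 0.146, 0 and 0 in MSA mice, and under PLX5622 0.229, 0 and 0 in controls and 1.62, 0.358 and 0.409 in MSA mice.

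Cell type markers moved with genotype in corpus callosum beside these genes. Choroid plexus genes summed to 250 to 344 CPM in placebo controls and 3187 to 8184 CPM in placebo MSA mice, and all 8 of 8 were called higher. Under PLX5622 their order was the reverse, 1378 to 1489 CPM in controls and 405 to 453 CPM in MSA mice. In that comparison Gfap, Vim, Serpina3n, Osmr, Cd44 and Cd109 were separated upward in MSA mice and Timp1 downward, and S1pr3, separated upward on placebo, was not separated. Meningeal fibroblast genes summed to 76.6 to 86.1 CPM in placebo controls and 263 to 502 CPM in placebo MSA mice, with Igf2 alone called (2.68 ± 0.35, adjusted p = 0.00814). Ependymal genes summed to 32.7 to 52.2 and 78.8 to 79.2 CPM, and microglia genes to 644 to 732 and 934 to 1126 CPM. Every gene of these 4 lists had counts in each of these groups. Homeostatic astrocyte genes, such as those of water channel and glutamate transporters, summed to 7891 to 8717 CPM in placebo controls and 9024 to 9636 in placebo MSA mice. edgeR called none of these 14 genes for genotype on placebo in any region, with 2, 2 and 0 at an unadjusted p under 0.05 in cortex, corpus callosum and striatum, and DESeq2 called only S100b in corpus callosum. In sorted microglia Igf2 averaged 41.6 CPM in controls and 62.2 in MSA mice, beside 721 and 1087 CPM of Ttr from the choroid plexus list. Col1a2, the highest of the other meningeal fibroblast genes there, averaged 0.967 and 2.26 CPM. Which cells the Igf2 counts came from was not tested. The part of the cell types above in the members' values was not tested either.

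The diet was compared next. In controls no member was called by edgeR or DESeq2 in cortex (background 0.486%), corpus callosum (0.46%) or striatum (0.336%). At an unadjusted p under 0.05 were 1, 2 and 2 members, and 418, 621 and 334 of the 14600, 15881 and 14872 genes tested. In MSA mice none was called by either tool in cortex (0.0548%), corpus callosum (0.0693%) or striatum (0.074%). There 1, 0 and 1 members, and 645, 1346 and 2053 of all genes, were at an unadjusted p under 0.05. The members' median log2 change in controls was 0.471 in cortex, 0.809 in corpus callosum and 0.746 in striatum, against 0.0236, 0.0205 and 0.00416 over all genes. In MSA mice it was -0.0108, -0.489 and 0.222. In controls edgeR called 10 of 12 microglia genes lower in each of the 3 regions, for example P2ry12 by -7.09 ± 0.44 in cortex. In MSA mice it called 5 of 12 lower in cortex, 2 in corpus callosum and 6 in striatum, with medians of -1.62, -2.18 and -1.94 against -7.7, -5.71 and -7.24 in controls. P2ry12 fell there by -2.80 ± 0.32 in cortex (adjusted p = 0.0097) and -2.67 ± 0.38 in striatum (0.0253), and Cx3cr1, the fractalkine receptor, by -2.57 ± 0.28 in corpus callosum (0.0174). In corpus callosum under PLX5622 the sum of the 12 microglia genes was 46.7 to 83.8 CPM in controls and 257 to 338 CPM in MSA mice. There the MSA minus control log2 difference was 1.08 ± 0.43 (SE) for Cd44 and 0.97 ± 0.49 for Vim, both of which sorted microglia also contained, and edgeR called neither (adjusted p = 0.995 for Cd44 and 0.99981 for Vim). The part of microglia in these values was not tested.

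**Figure D3:**
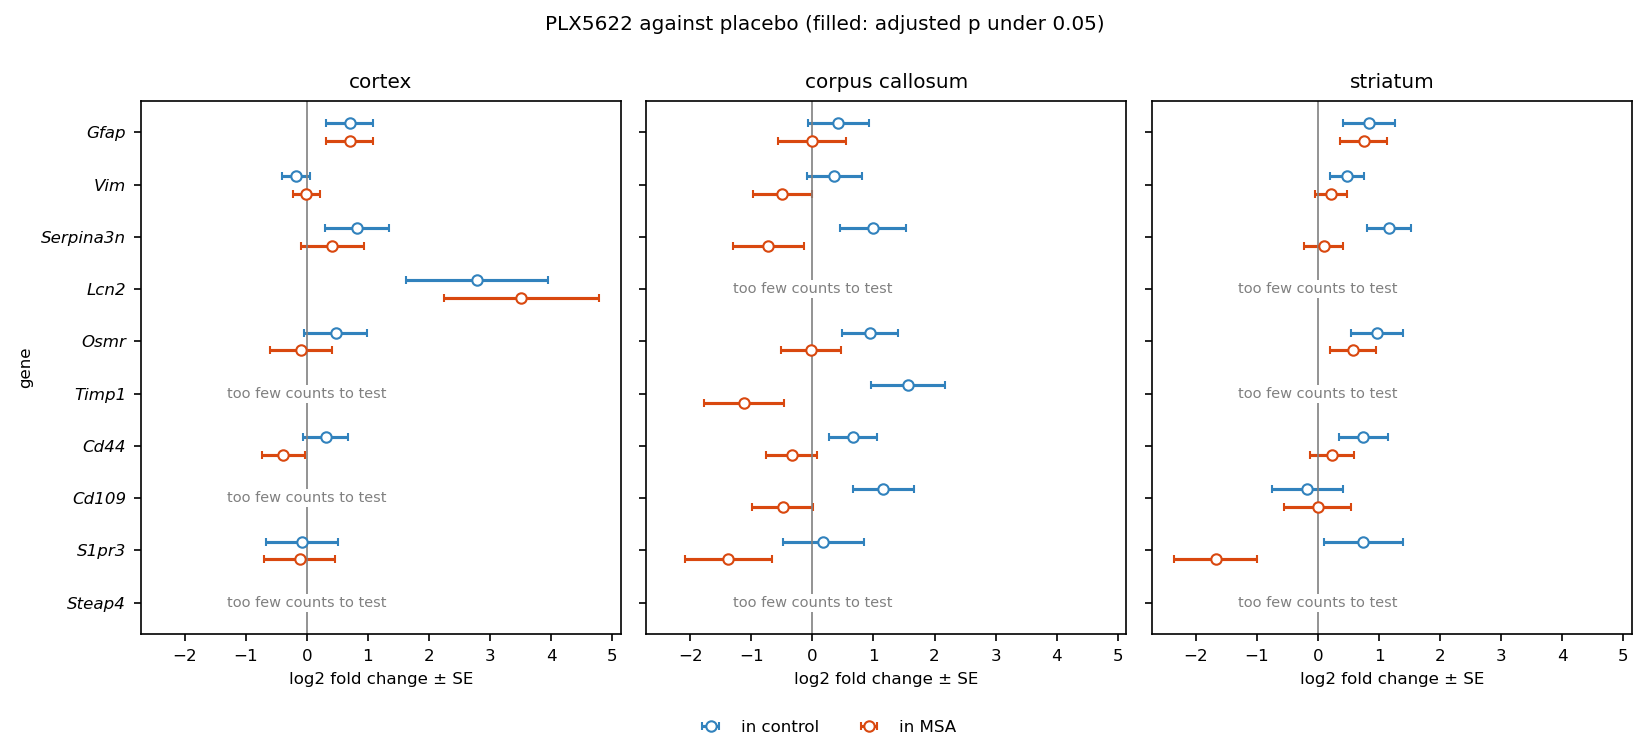
Log2 fold change of PLX5622 against placebo (horizontal axis, ± SE of the edgeR fit) for each gene and region, in control and in MSA mice; no point is filled, since none had an adjusted p under 0.05. In corpus callosum the 8 tested genes lie right of 0 in controls and left of 0 in MSA mice.

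In control corpus callosum all 8 tested members had positive estimates under PLX5622, and Lcn2, Timp1, Cd44 and Cd109 lay above all placebo values, against 7.06% of genes. Timp1 had the lowest p of these (1.56 ± 0.60, adjusted p = 1.00). In control striatum Gfap, Serpina3n, Osmr and Cd44 were separated upward, against 10.1% of genes. The Serpina3n estimate there was 1.17 ± 0.36 (adjusted p = 0.696) and that of Osmr 0.96 ± 0.43, neither past the threshold. In control cortex none was separated upward (1.49% of genes were), and Steap4 was separated downward (3.79% of genes were), from 2 to 6 counts per library on placebo to 0 or 1. The Gfap estimate there was 0.71 ± 0.39 in controls and 0.70 ± 0.38 in MSA mice.

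In MSA corpus callosum the 8 tested estimates were all below 0, from -0.01 (Gfap) to -1.37 (S1pr3), and no member was separated upward, against 31.1% of genes. Timp1 was separated downward, against 19% of genes. In MSA cortex Lcn2 and Steap4 were separated upward, against 8.08% of genes. In MSA striatum Lcn2 and Osmr were separated upward, against 12.5% of genes, and S1pr3 downward, against 14.4% of genes (-1.67 ± 0.69, adjusted p = 0.327). Without placebo MSA striatum library 1, edgeR called Gfap higher under PLX5622 in MSA striatum (1.27, adjusted p = 0.0333). That fit called 824 genes or 5.58% of all. Library 1 had the highest Gfap value of its group, so leaving it out by itself widens the difference. It also held 911 CPM of cortical glutamatergic neuron genes, against 177 and 116 CPM in the other placebo MSA striatum libraries. The part of this in the Gfap values was not tested.

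Lcn2 was the member with the largest diet estimates. In cortex it went from 0.140, 0.648 and 0 CPM on placebo to 0, 1.48 and 4.22 CPM under PLX5622 in controls (2.79 ± 1.16, adjusted p = 1.00). In MSA mice it went from 0.146, 0 and 0.268 to 1.62, 2.33 and 1.84 CPM (3.51 ± 1.27, adjusted p = 0.921). The groups overlapped in controls and were separate in MSA mice. In MSA striatum 1 of 2 PLX5622 libraries had 3.48 CPM and the other 0.136. Neutrophil and monocyte genes, which accompany Lcn2 in blood cells, summed to 0 CPM in all 3 placebo MSA cortex libraries and to 0.613 to 8.76 CPM in those on PLX5622. In control cortex they summed to 0.838 to 4.62 on placebo and 1.16 to 2.52 CPM under PLX5622. Their part in the Lcn2 values was not tested.

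The difference between the 2 diet effects, the interaction, was called for no member by edgeR or DESeq2 in cortex (background 0.0959%), corpus callosum (0.264%) or striatum (0.0874%). At an unadjusted p under 0.05 were 0, 2 and 2 members, and 551, 747 and 744 of all genes. In corpus callosum all 8 tested estimates were negative, with a median of -1.28 against 0.00279 over all genes. They went as far as -2.67 ± 0.89 for Timp1 (adjusted p = 0.813) and -1.71 ± 0.79 for Serpina3n. The genotype and diet estimates within a region share libraries, so these signs are not independent of those above.

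Between regions of placebo control mice, Gfap was higher in corpus callosum than in cortex by 2.12 ± 0.47 (adjusted p = 0.00893), the 1 member called of 9 tested, against 2.94% of genes. The levels were 954, 315 and 397 CPM against 140, 120 and 93.8 CPM, without overlap. The call was lost without corpus callosum library 1 (1.42, adjusted p = 0.154), on the compared groups alone (adjusted p = 0.0904) and without the libraries of under 70% assigned reads (0.0874). The striatum, at 266 and 179 CPM of Gfap, lay above all 3 cortex libraries, and the difference from cortex was not past the threshold (0.88 ± 0.50, adjusted p = 0.268). Of all genes 22.5% were separated upward in striatum against cortex, and 13.9% in corpus callosum against cortex. Mature oligodendrocyte genes summed to 16200 to 30440 CPM in these corpus callosum libraries and at most 3540 CPM in cortex.

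Cd109 had another regional order. It was higher in striatum than in cortex by 2.67 ± 0.74 (adjusted p = 0.0166), again the 1 member called of 9, against 12.9% of genes. Its levels were 3.69 and 3.82 CPM in striatum, 2.27, 0.957 and 1.93 in corpus callosum and 0.698, 0.259 and 0.770 in cortex. Striatum and corpus callosum each lay above all cortex values, as they did for 22.5% and 13.9% of genes. The striatal call was lost without cortex library 2 (adjusted p = 0.0751), without striatum library 1 (0.0587) or 2 (0.0993), and on the compared groups alone (0.0589). Corpus callosum against cortex gave 1.48 ± 0.70 (adjusted p = 0.339). Vim was separated upward in both corpus callosum (0.78 ± 0.32, adjusted p = 0.237) and striatum (0.52 ± 0.35, adjusted p = 0.355) against cortex. Cd44 was separated downward in striatum (-0.37 ± 0.39, adjusted p = 0.588), as was Steap4, against 18.1% of genes. For Vim, Serpina3n, Osmr, Timp1, Cd44 and S1pr3 neither corpus callosum nor striatum differed from cortex past the threshold, and corpus callosum was not tested against striatum.

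The difference of the genotype effect between regions was tested on all 30 bulk libraries. For corpus callosum minus cortex edgeR and DESeq2 called no member (background 0%). At an unadjusted p under 0.05 were 3 members and 453 of all 16080 genes. All 9 tested estimates were positive, with a median of 1.43 against 0.0365 over all genes. The members with an unadjusted p under 0.05 were Vim (1.37 ± 0.47), Serpina3n (1.88 ± 0.78) and Cd109 (2.46 ± 1.02), each with an adjusted p of 1.00. The Gfap estimate was 0.15 ± 0.67. For striatum minus cortex neither tool called a member (background 0%), and the median was -0.0827. There 0 members and 490 of all genes were at an unadjusted p under 0.05. The estimates of larger genotype effects in corpus callosum were therefore not past the threshold for any member.

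The 10 genes were then measured in sorted microglia. Their 12 microglia genes summed to 60900 to 63700 CPM, against at most 1130 CPM in corpus callosum. The microglia libraries gave 35 counts of Gfap in all 6 libraries together, at 0.277 to 1.25 CPM, against 85.0 to 2178 CPM in bulk. Serpina3n had 1 count, S1pr3 1, Steap4 2, Cd109 4, Osmr 12 and Timp1 none, where 3 counts over the 6 libraries correspond to 0.0603 CPM. The defining astrocyte genes Aqp4 and Gja1 lay at 0.611 to 1.92 and 0.554 to 1.88 CPM there. Vim, Lcn2 and Cd44 remained, with 550, 391 and 361 counts, and these were the 3 members tested.

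**Figure D4:**
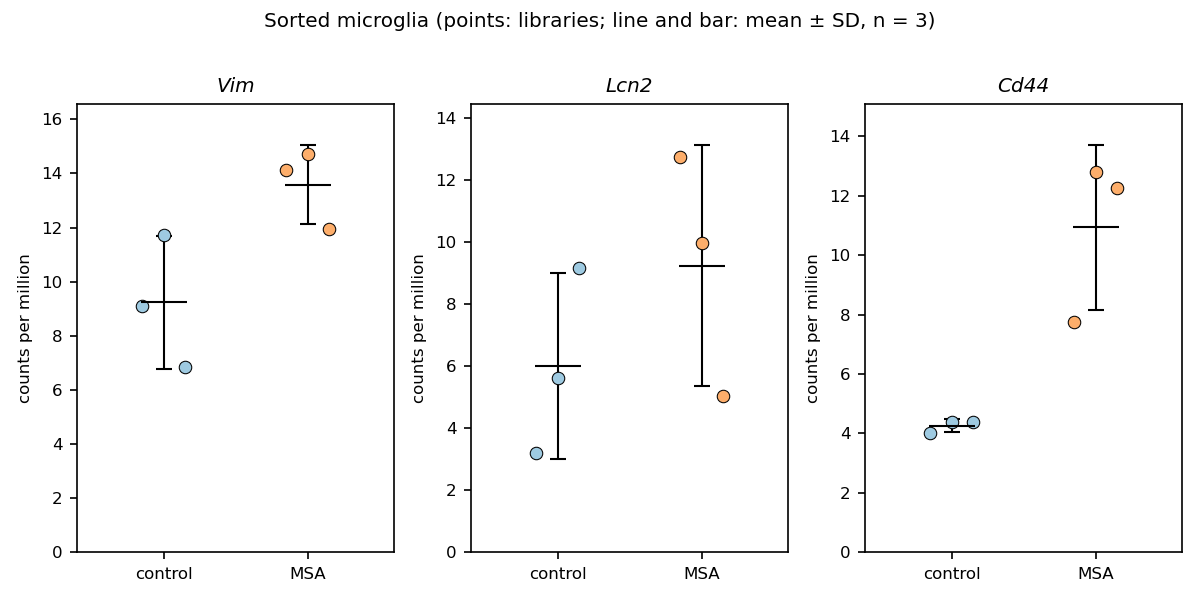
Vim, Lcn2 and Cd44 in sorted microglia of control and MSA mice, in CPM (linear axis from 0); points are libraries and the line and bar are mean ± SD of 3 libraries. The MSA points lie above all control points for Vim and Cd44, as they did for 12.4% of all genes tested, and the groups overlap for Lcn2.

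Cd44 rose in MSA microglia, from 4.02, 4.40 and 4.38 CPM to 7.75, 12.8 and 12.3 CPM, by 1.31 ± 0.22 (adjusted p = 0.0266). It was 1 of 3 members called, by edgeR and by DESeq2, where edgeR called 0.61% of all genes. The call was lost without control library 2 or 3 or MSA library 2 or 3, with adjusted p from 0.0913 to 0.139 and log2 changes of 1.17 to 1.33. Choroid plexus genes summed to 519, 1173 and 717 CPM in the control libraries and 844, 1607 and 1190 CPM in the MSA libraries. Within each genotype this was the same order as that of Cd44, and the genotypes overlapped. The part of choroid plexus RNA in the Cd44 values was not tested. Vim was 9.11, 11.7 and 6.85 CPM in controls and 14.1, 14.7 and 11.9 in MSA mice, with the highest control just below the lowest MSA library (0.53 ± 0.20, adjusted p = 0.375). Of all 11810 genes tested, 12.4% were separated upward in MSA microglia, as Vim and Cd44 were. Lcn2 overlapped between genotypes, at 3.22, 5.63 and 9.17 against 12.7, 9.96 and 5.04 CPM (0.56 ± 0.46, adjusted p = 0.739). Neutrophil and monocyte genes summed to 49.96, 84.87 and 107.4 CPM in the control libraries and 150.7, 132.9 and 81.33 CPM in the MSA libraries, in the same order within each genotype as Lcn2. Their part in the Lcn2 values was not tested. Among the partners of these genes, the gelatinase Mmp2 fell in MSA microglia (-0.69 ± 0.11, adjusted p = 0.0284). Of the endothelium genes Flt1, a receptor for VEGF, rose there (3.12 ± 0.32, adjusted p = 0.00114), from a mean of 0.847 to 7.61 CPM. In the same list Pecam1 (-0.36 ± 0.29, adjusted p = 0.742) and Cdh5 (-0.33 ± 0.46, adjusted p = 0.854) had negative estimates without a call. Cldn5, Slco1a4 and Ly6c1 had too few counts to test. The endothelium list summed to 58.9, 35.2 and 37.3 CPM in the control libraries and 42.5, 51.05 and 33.8 CPM in the MSA libraries.

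The pathway around Osmr was listed as 14 genes of gp130 and STAT3 signalling, of which 13 were tested in corpus callosum, 10 in cortex and 11 in striatum. For genotype on placebo edgeR called none, with 2, 0 and 1 at an unadjusted p under 0.05, and DESeq2 called Socs3 in corpus callosum. Their median was 0.781 in corpus callosum, 0.251 in cortex and 0.166 in striatum. Socs3, the feedback inhibitor that STAT3 induces, measured 11.2, 5.06 and 7.27 CPM in placebo control corpus callosum and 30.4 and 14.4 CPM in placebo MSA mice. Under PLX5622 it had 7.22 and 10.4 against 21.3 and 24.6 CPM, so its MSA values also lay above those of the controls on both diets. Such upward separation was seen in corpus callosum for 17.2% of all genes on placebo and 17.4% under PLX5622. DESeq2 called Socs3 over both diets too, and edgeR did not. Among genes given an adjusted p, DESeq2 called 1.22% on placebo and 1.44% over both diets in corpus callosum. Stat3 ranged from 38.6 to 58.6 CPM in placebo controls and 67.0 to 92.8 in placebo MSA corpus callosum. Osm, the ligand, was at 17.4 to 32.6 CPM in sorted microglia and at most 1.29 CPM in bulk tissue. Socs3, Stat3 and Osm were singled out after their values were seen.

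Genes reported for astrocytes after inflammatory stimulation (12 listed, 12 tested in each region) had a median genotype effect on placebo of 0.919 in corpus callosum, 0.15 in cortex and 0.391 in striatum. edgeR called 0 of them, with 4, 1 and 1 at an unadjusted p under 0.05, and DESeq2 called 2 in corpus callosum, Serping1, an inhibitor of complement C1, and H2-D1, a class I antigen-presenting molecule. Those of astrocytes after ischaemia (11 listed) had 0.594 with 10 tested in corpus callosum, -0.553 with 6 in cortex and 0.43 with 8 in striatum. Neither tool called any of these, and 3, 0 and 0 had an unadjusted p under 0.05. Under PLX5622 the list's Cd14, a receptor subunit of myeloid cells as well, fell in control cortex (-5.81 ± 1.11, adjusted p = 0.0333) and control striatum (-4.71 ± 0.86, adjusted p = 0.0425). All 4 of the 4 further pan-reactive genes Hspb1, Cxcl10, Cp and Aspg had positive genotype estimates in placebo corpus callosum, with a median of 0.936. Neither edgeR nor DESeq2 called any, and 0 had an unadjusted p under 0.05.

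The genes most like Gfap were sought over the 30 bulk libraries, by Pearson's correlation of log2 CPM after the mean of each region was subtracted, among 12361 genes. C4b, which encodes complement component 4 and is made by reactive astrocytes and by oligodendrocytes, came first (r = 0.837, Spearman's rho = 0.854). Nkx6-2 (0.752), Erbin (0.748), Tor1aip1 (0.742), Hspb6 (0.727) and Nek9 (0.724) followed. Of the other members, Cd44 (0.769), Vim (0.706) and Serpina3n (0.684) were the most like Gfap, then Cd109 (0.495), Osmr (0.444), Lcn2 (0.312), S1pr3 (0.286) and Timp1 (0.225), and Steap4 was at 0.033. These libraries share genotype and diet groups, depth and tissue composition, so the coefficients describe them and carry no test.

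**Figure D5:**
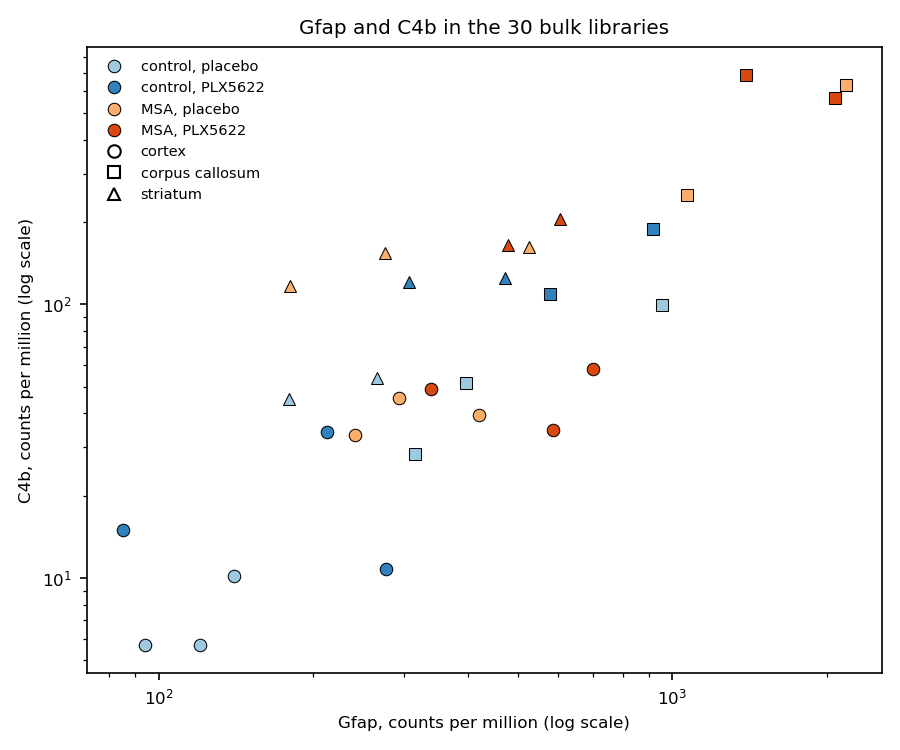
Gfap against C4b, both in CPM on log axes, in the 30 bulk libraries; colour gives genotype and diet and the symbol gives the region. C4b is lowest in placebo control cortex, at 5.7 to 10.2 CPM, and both genes are highest in MSA corpus callosum, at 251 to 686 CPM of C4b and 1069 to 2178 CPM of Gfap.

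C4b itself was called higher in MSA mice in each region over both diets, by 1.81 ± 0.29 in cortex (adjusted p = 0.0205), 2.43 ± 0.39 in corpus callosum (0.0284) and 1.07 ± 0.15 in striatum (0.00969). It was listed as a gene of disease-associated oligodendrocytes together with Klk6, a protease of mature oligodendrocytes. Klk6 fell in MSA striatum by -6.64 ± 0.54 over both diets (adjusted p = 0.000253). In control striatum C4b also rose under PLX5622, from 54.0 and 45.0 to 125 and 121 CPM (1.35 ± 0.23, adjusted p = 0.0256). The members separated upward in that comparison, Gfap, Serpina3n, Osmr and Cd44, had estimates of 0.84, 1.17, 0.96 and 0.75 without a call.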

How the data were processed

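Poly(A) RNA-seq libraries were grouped by genotype, region and diet from their titles. The submitters' processing notes name STAR, HOMER, DESeq2 and the build mm10. Tool versions and the strand setting were not given in the sources used here. Per the file headers, the deposited tables hold raw read counts and TPM of 24940 genes, each with 1 RefSeq transcript. Counts served every test, and the deposited TPM values served only levels between genes. Each region was fitted with its 4 groups, microglia alone, and regions on all 30 bulk libraries. In edgeR 4.0.16 (R 4.3.3), filterByExpr at a minimum count of 10 chose the genes, TMM set the scale, and robust quasi-likelihood F tests (2-sided) gave Benjamini-Hochberg adjusted p with a threshold of 0.05. CPM are counts over assigned counts times 1e6. The tests were checked on simulated counts. Counts of libraries without overlap use every library. Alternatives were RLE factors, DESeq2 1.42.0, an unfiltered fit, a replicate block, fits on the compared groups alone, single libraries left out, and the fit lacking the PLX5622 control striatum. Leaving out libraries under 70% assigned was chosen after seeing the data.

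All 10 members are named. For 17 other lists (146 genes, 0 missing from the table) the rule was to name genes past the threshold, at most 4 per list and comparison by smallest p; it was not followed in full, since marker lists of other cell types are mostly given by counts and sums. Also named are the 6 genes most like Gfap, of mean log2 CPM of at least 2. Socs3, Stat3, Osm, Aqp4, Gja1, S100b, Serping1 and H2-D1 are named beside these after their values were seen. The members and lists were chosen with earlier results of these data known. In the GRCm38 annotation (GENCODE M21) the spans of Gfap, Cd44, Cd109, S1pr3 and Timp1 overlap the span of a gene on the opposite strand. Whether their exons overlap was not checked. Without strand, reads from any shared exon stretch cannot be told apart. Intervals were not computed for levels, and the floor of 3 counts covers counting error only. Figures were drawn with matplotlib.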

Additional observations from a re-analysis of the deposited data

Results flagged for a closer look

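For 2 of the 10 genes the PLX5622 libraries lay wholly on one side of the placebo libraries in controls and wholly on the opposite side in MSA mice; this criterion is no test, and neither gene had a called diet effect. Timp1 in corpus callosum was higher under PLX5622 in controls, by 1.80 CPM in the means, and lower in MSA mice, by -1.36 CPM, a pattern that 1.4% of all genes had there. Its interaction in the edgeR fit had an unadjusted p of 0.0126 and an adjusted p of 0.813. Steap4 in cortex was lower under PLX5622 in controls, by -0.521 CPM, and higher in MSA mice, by 0.746 CPM, as 0.171% of genes were. It had too few counts for a test in the fit.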

How the results depend on the processing

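Of 51 single-gene results, 650 alternative values were computed: 612 stayed on the same side of the threshold, 23 lost a call, 15 gained one and 0 changed direction. The 51 are those with an unadjusted p under 0.05 in the main fit, a choice that makes a change of direction unlikely. Most of them were not called, so staying on the same side mostly means staying uncalled. The 23 lost calls were of Cd109 for genotype in corpus callosum, Cd44 in microglia, and Gfap and Cd109 between regions. Counts of called members moved as follows. With DESeq2 the count was 1 for genotype over both diets in cortex, 4 for genotype on placebo in corpus callosum and 5 over both diets there. Without the low-count filter these were 1, 2 and 2, in fits that called 0.144%, 0.441% and 0.639% of all genes. On the compared groups alone it was 2 for genotype on placebo in corpus callosum, against 1.79% of all genes, and 0 for either regional comparison with cortex. Without libraries under 70% assigned, an alternative chosen after seeing the data, it was 0 for corpus callosum against cortex. Leaving out each library gave 0 to 1 for genotype on placebo in corpus callosum, 0 to 2 over both diets there, 0 to 1 for the diet in MSA striatum, 0 to 1 in microglia and 0 to 1 for both regional comparisons.

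With the replicate block the count was 0 for both corpus callosum results, where Cd109 gave 3.49 (adjusted p = 0.0555) and 2.16 (adjusted p = 0.116). It was 1 (Gfap) in striatum for genotype under PLX5622, over both diets and for the diet in MSA, where the block called 12.8%, 7.69% and 9.07% of all genes against 0.222%, 0.377% and 0.074% without it. The replicate numbers share no stated source, and they were not taken as pairs. In no fit were all same-numbered pairs correlated above 0.1 (lowest r = -0.706, -0.56, -0.21 and -0.0783). These pairs join libraries of different groups within a region or within the sorted cells. They therefore cannot show whether libraries of different regions came from the same animal. That was not tested, and the regional comparisons took the libraries as independent. The median correlation of same-numbered deviations was -0.0802 for cortex, -0.0475 for corpus callosum, 0.171 for striatum and 0.00516 for the sorted cells, against 0.0551, 0.0475, -0.092 and -0.0114 for different numbers. Libraries resembled most the one with their own number in 2 of 12, 3 of 9, 5 of 9 and 2 of 6 cases. Groups of 2 or 3 libraries and the low counts of Lcn2, Timp1, Cd109 and Steap4 limit the tests, and the cause of the moved counts was not tested.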
